A study of Mus musculus with 6 samples.

Results

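Serpins and the plasminogen activators were followed in cultured mouse ovarian surface epithelial cells, the single-layered epithelium that covers the ovary. The groups compared are labelled WT and knockout of the Hippo pathway kinases Lats1 and Lats2. The set holds every protein-coding gene whose symbol begins with Serpin except Serping1, together with Plat, Plau and Plaur, and comes to 63 genes of the 48440 in the table. The rule reads gene symbols alone, although earlier results of these data were known when it was written. The control group, Ad-GFP, has 3 libraries of cells given an adenovirus carrying GFP, and its genotype is labelled WT. The other group, Ad-Cre-GFP, has 3 libraries of cells given an adenovirus carrying Cre and GFP, and its genotype is labelled Lats1/2 knockout. Both groups were taken 7 days after the virus, and poly(A) RNA was sequenced. Strain, age, the exons that Cre removes, whether the control cells carry the same alleles, and whether the 3 libraries of a group are separate cultures are not stated in the labels, so p-values measure the spread between these libraries, which may be technical. Deletion, Cre exposure and differences between the cultures cannot be told apart in this design.

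Most serpins are protease inhibitors that work by a single-use trap: the protease cuts an exposed loop of the serpin, the loop inserts into the body of the serpin, and the protease is carried along and held in an inactive covalent complex. Plat (tissue plasminogen activator, tPA) and Plau (urokinase, uPA) cut plasminogen into plasmin, a protease that dissolves fibrin and takes part in the breakdown of matrix, while Plaur is the cell-surface receptor that holds urokinase. Serpins of several clades restrain the activators or plasmin, and in the ovary this system is best known around ovulation, when the follicle wall and the surface epithelium over it break.

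Library totals ran from 18690235 to 25363462 counts in Ad-GFP and from 27734527 to 30304033 in Ad-Cre-GFP. Lats1 was 159 ± 8.74 CPM (SD, n = 3) in Ad-GFP and 37.1 ± 1.36 in Ad-Cre-GFP, and Lats2 was 130 ± 2.16 and 98.7 ± 1.97. Both were lower in the group labelled knockout, Lats2 by 1.31-fold. The log2 change of Lats2, -0.39, was smaller in size than the median of 0.49 over all genes called. By itself the Lats2 level therefore does not check the label. All 11 epithelial and mesothelial markers passed the filter on low counts, with summed levels of 4120–4157 CPM in Ad-GFP and 3804–3837 in Ad-Cre-GFP. In Ad-Cre-GFP 5 were higher, 5 were lower and 1 was not called. The sums hide larger changes of single markers. Mean Krt19 went from 560 to 185 CPM and Gata4 from 273 to 106, while Msln went from 413 to 887 and Krt7 from 1.86 to 4.91. Along the second principal component, with 3.15% of the variance against 89.5% for the first, Ad-GFP replicate 3 lay apart from the other two Ad-GFP libraries. Levels are in CPM, a gene's count per 1000000 counts of its library, on library sizes scaled by edgeR's trimmed mean of M values, and a gene is called when edgeR's quasi-likelihood test gives a Benjamini-Hochberg adjusted p under 0.05 over the 14811 genes tested.

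Of the 63 members, 24 had no count in any library, 22 had counts but at most 16 in any library and were not tested, and 17 were tested. Ad-Cre-GFP was called higher for 9 of the 17 and lower for 6, and 2 were not called. The background was broad: 69.8% of all genes tested were called, 34.0% higher and 35.8% lower, so the share called among the members is to be read against a large one. A call with a change of at least 2-fold was made for 9 of the 17 members against 13.8% of all genes tested. The groups did not overlap for 16 of the 17, against 73.0% of all genes tested. The members' median log2 fold change was 0.11 beside -0.01 over all genes tested. Of the 17, 2 passed the filter only through Ad-Cre-GFP (Serpinb1b and Serpind1) and 2 only through Ad-GFP (Serpinb5 and Serpine3), and such a filter favours genes that differ, so these counts describe the detected genes and not the family.

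**Figure D1:**
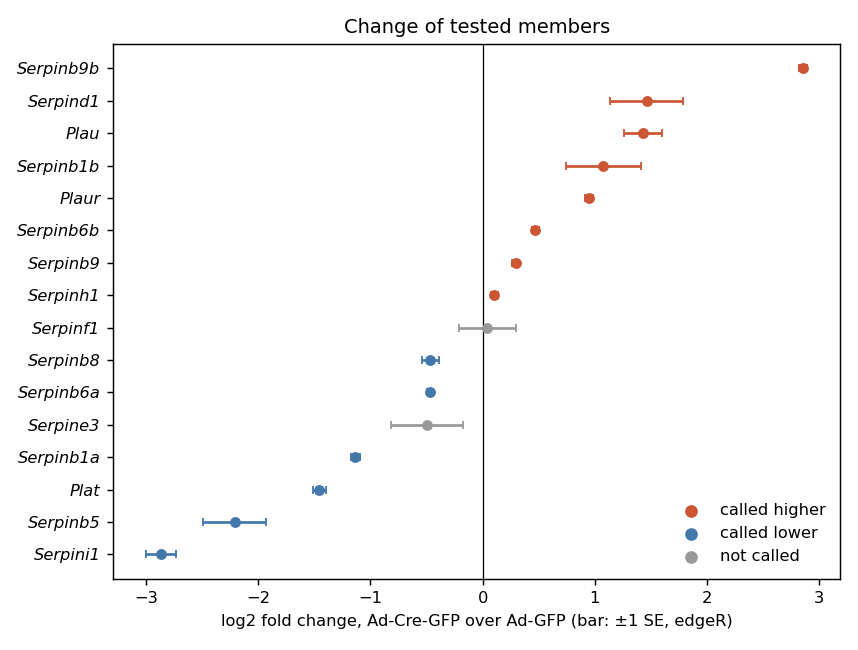
Log2 fold change of Ad-Cre-GFP over Ad-GFP for 16 of the tested members, ordered by that value; points are edgeR estimates, bars are ±1 SE, and colour marks the call. Serpinb9b lies farthest to the right at 2.86, and Serpini1 and Serpinb5 farthest to the left at -2.87 and -2.21.

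The 2 plasminogen activators moved in opposite directions. Plat, which codes for tPA, was 43.9, 48.9 and 48.8 CPM in the Ad-GFP libraries and 16.5, 17.1 and 18.1 CPM in the Ad-Cre-GFP libraries. Every Ad-GFP library was above every Ad-Cre-GFP library. Plat fell by 1.46 ± 0.06 on the log2 scale (SE), a level 2.74-fold lower, with an adjusted p of 9.59e-16 from edgeR. Plau, which codes for uPA, had fewer counts, at 4.10, 4.73 and 2.23 CPM in Ad-GFP and 10.5, 9.67 and 10.5 CPM in Ad-Cre-GFP. Counts also depend on gene length, so the levels of the 2 genes are compared per length further below. Here the Ad-Cre-GFP libraries were the higher ones without overlap, and Ad-GFP replicate 3 was the lowest of the 6. Plau rose by 1.43 ± 0.17 (2.69-fold, adjusted p = 1.24e-05), and the estimate was 1.20 without that library. Added together, the counts of the 2 activators came to 50.9 ± 2.83 CPM (SD, n = 3) in Ad-GFP and 27.5 ± 1.01 in Ad-Cre-GFP.

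Plaur, the urokinase receptor, had 83.7, 87.6 and 79.9 CPM in Ad-GFP and 161, 162 and 164 CPM in Ad-Cre-GFP. The 3 Ad-Cre-GFP libraries lay within a few CPM of each other and far above the controls. Plaur rose by 0.95 ± 0.03 (1.93-fold, adjusted p = 3.81e-16). So the receptor and its ligand were both higher while the second activator was lower. These are bulk libraries, in which fewer cells of a type and less RNA per cell cannot be told apart.

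**Figure D2:**
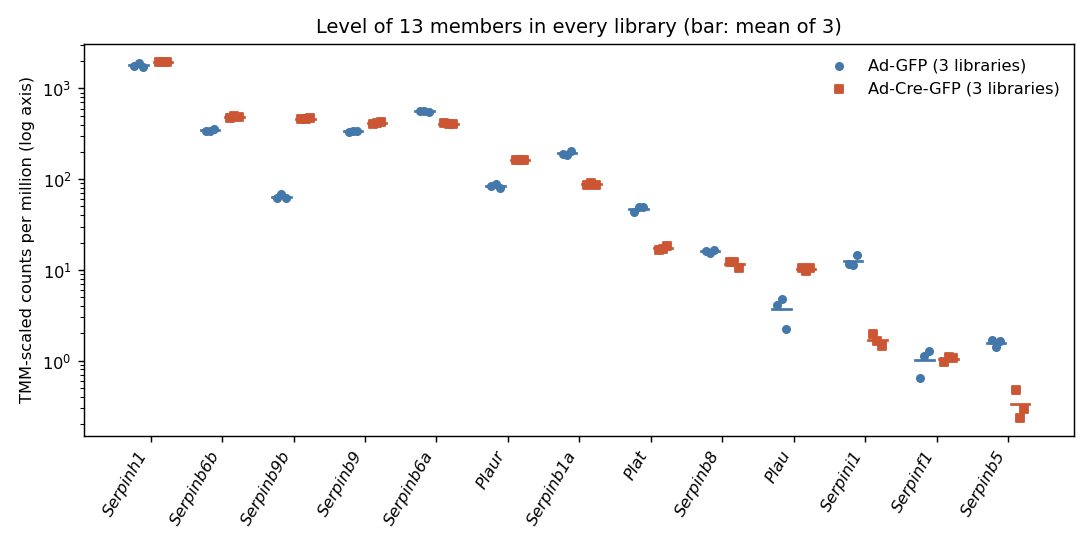
Level of 13 tested members with a mean of at least 1 CPM in either group, in CPM on a log axis; each point is 1 library, blue circles for Ad-GFP and red squares for Ad-Cre-GFP, and lines are the mean of 3. Serpinb9b separates most widely upward and Serpini1 most widely downward, while the 2 groups share their range for Serpinf1.

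Ratios taken within a library do not depend on the scaling between libraries. They are ratios of read counts, which also depend on transcript length, so only their change between groups is read here. Plat counts were 10.7, 10.3 and 21.9 times those of Plau in Ad-GFP, with replicate 3 apart, and 1.57, 1.76 and 1.72 times in Ad-Cre-GFP. The 2 activators were thus closer to each other in every Ad-Cre-GFP library than in any Ad-GFP library. The mean ratio was 14.3 ± 6.59 in Ad-GFP and 1.69 ± 0.101 in Ad-Cre-GFP (SD, n = 3), 8.49-fold lower, and no test was run on it.

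**Figure D3:**
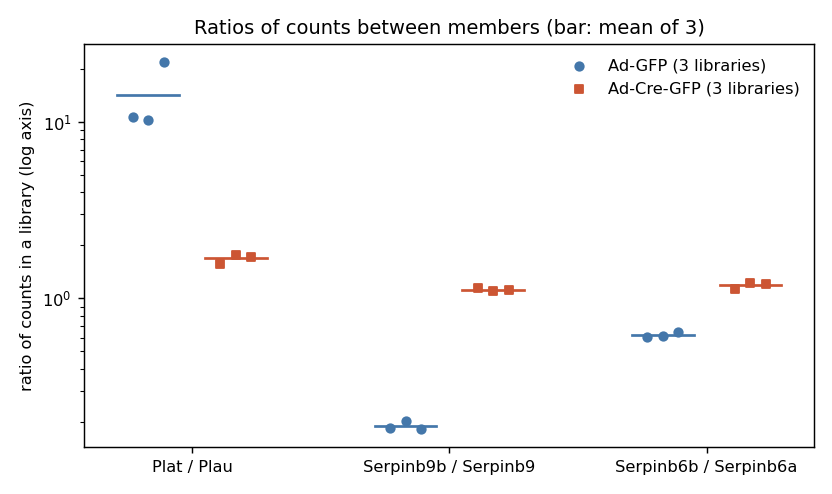
Ratios of counts within each library for 3 pairs of members, Plat over Plau, Serpinb9b over Serpinb9 and Serpinb6b over Serpinb6a, on a log axis; each point is 1 library, blue circles for Ad-GFP and red squares for Ad-Cre-GFP, and lines are the mean of 3. The Ad-Cre-GFP libraries lie below all Ad-GFP libraries for the first pair and above them for the other two.

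Among the secreted serpins described here, Serpini1 fell most. Serpini1 codes for neuroserpin, an inhibitor of tPA best known from neurons. It had 11.5, 11.3 and 14.5 CPM in Ad-GFP and 1.95, 1.64 and 1.46 CPM in Ad-Cre-GFP, with the highest control in replicate 3. The level fell by 2.87 ± 0.13 on the log2 scale, 7.29-fold (adjusted p = 3.67e-14), and 173 called genes fell by more. Serpini1 thus fell together with Plat. Serpind1, heparin cofactor II, an inhibitor of thrombin, was near the detection limit, with 19 counts over the 3 Ad-GFP libraries and 69 over the 3 Ad-Cre-GFP libraries. It rose by 1.46 ± 0.33 (adjusted p = 0.000438). Serpind1 lies within the span of Pi4ka on the opposite strand, a gene with 13138 counts, and no source names the strand setting of the counting, which leaves the value uncertain. Serpine3 had 39 and 36 counts in the 2 groups and was not called, at -0.50 ± 0.32 (adjusted p = 0.180); it overlaps Ints6, which is on the other strand and had 5231 counts.

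Several secreted inhibitors with a known part in clotting or fibrinolysis stayed under the filter. Serpine2, protease nexin 1, an inhibitor of thrombin and urokinase, had 3 counts over the Ad-GFP libraries and 20 over the Ad-Cre-GFP libraries, a ratio of 4.99 after division by the totals (95% exact binomial interval 1.48–26.2, counting error only). Serpinc1, antithrombin, had 16 and 24 counts, a ratio of 1.12 with an interval of 0.572–2.26. Serpinf2, the plasmin inhibitor alpha-2-antiplasmin, had 15 and 17 counts, a ratio of 0.848 with an interval of 0.398–1.82. For the latter pair a difference between the groups was not detectable at this depth.

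The serpins that do not act as protease inhibitors included the most abundant member. Serpinh1 codes for Hsp47, the chaperone that binds folding collagen in the endoplasmic reticulum. It had 1780, 1912 and 1738 CPM in Ad-GFP and 1939, 1966 and 1935 CPM in Ad-Cre-GFP. The groups stood close together but did not overlap. Serpinh1 rose by 0.11 ± 0.03 (1.08-fold, adjusted p = 0.00809), but leaving out Ad-GFP replicate 1 ended that call (adjusted p = 0.0575; 7.22e-05 to 0.0575 over the alternatives). Serpinf1, which codes for the secreted factor PEDF, had 0.638, 1.14 and 1.27 CPM in Ad-GFP and 0.958, 1.10 and 1.06 CPM in Ad-Cre-GFP. The groups overlapped, and Serpinf1 was not called, at 0.04 ± 0.25 (adjusted p = 0.892), with a sign that changed when some single libraries were left out.

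Serpinb5, maspin, is an epithelial serpin also without known inhibitor activity. It had 1.69, 1.41 and 1.64 CPM in Ad-GFP and 0.479, 0.234 and 0.292 CPM in Ad-Cre-GFP. All 3 Ad-Cre-GFP libraries were lower, and the level fell by 2.21 ± 0.28 (adjusted p = 4.48e-07) on 104 and 29 counts in all. Serpinb5 belongs to clade B, the mostly intracellular serpins, which in the mouse lie in clusters on chromosomes 1 and 13.

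Of the 26 clade B members, 11 are on chromosome 1, and 2 of these were tested. Both were lower in Ad-Cre-GFP, but Serpinb5 passed the filter only through Ad-GFP, which favours a fall. The second was Serpinb8, an inhibitor of furin-like proteases, at 16.3, 15.5 and 16.5 CPM against 12.1, 12.2 and 10.5 CPM. The groups did not overlap, and Serpinb8 fell by 0.47 ± 0.07 (adjusted p = 7.06e-06). Of the untested genes of this cluster, Serpinb7 had 24 counts in Ad-Cre-GFP against 1 in Ad-GFP (ratio 18.0 after division by the totals, interval 2.93–738). Serpinb2 had 15 against 4 (ratio 2.81, interval 0.894–11.6) and Serpinb11 had 5 against 9 (ratio 0.416, interval 0.109–1.38). The intervals of Serpinb2 and Serpinb11 include 1. The remaining 6 genes had no counts.

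Chromosome 13 holds the other 15 clade B genes, and 6 of these were tested, 4 higher and 2 lower. Among the higher ones, Serpinb1b passed the filter only through Ad-Cre-GFP, which favours a rise. The 15 genes lie between 32842092 and 34002794 on chromosome 13 (GRCm38). Summed, the chromosome 13 genes gave 1490 to 1522 CPM in Ad-GFP and 1832 to 1867 in Ad-Cre-GFP. Without Serpinb9b the sum was 1429 to 1460 CPM in Ad-GFP and 1371 to 1403 in Ad-Cre-GFP. The summed counts of the rest of the cluster were thus slightly lower in Ad-Cre-GFP. Such sums also depend on the lengths of the genes, so they are not transcript totals. Within the cluster, close copies that sit beside each other or stem from the same subfamily changed to different degrees or in different directions.

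Serpinb9b had the largest rise of the members tested. It had 61.3, 67.8 and 62.2 CPM in Ad-GFP and 460, 455 and 474 CPM in Ad-Cre-GFP. The gap between the groups was far wider than the spread within either. Serpinb9b rose by 2.86 ± 0.04 (7.25-fold, adjusted p = 1.39e-23), and 152 called genes rose by more. Serpinb9, the inhibitor of granzyme B that protects cells from their own or a killer cell's granules, begins about 24 kb away and had 331, 338 and 341 CPM in Ad-GFP and 402, 415 and 423 CPM in Ad-Cre-GFP. It also rose, by 0.29 ± 0.03 (1.23-fold, adjusted p = 1.39e-08). Serpinb9b counts were 0.189 ± 0.00986 of those of Serpinb9 in Ad-GFP (SD, n = 3) and 1.12 ± 0.0252 in Ad-Cre-GFP, so the more abundant of the pair by counts changed from Serpinb9 to Serpinb9b.

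The coding sequences of the pair are alike at 86.0% of 1122 aligned bases, which is why the stretch of longest exact identity is shown. It is 62 bases long and starts at base 261 of the Serpinb9 coding sequence (GENCODE release M21), printed in lower case.
Serpinb9 and Serpinb9b shared run: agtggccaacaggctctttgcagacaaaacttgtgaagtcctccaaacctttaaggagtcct
A read that falls wholly inside such a run fits both genes, and how the authors' counting treated such reads is not given in the sources used here. The sum over the pair does not depend on how shared reads were split between the genes. It does depend on whether such reads were dropped or counted for both. The sum was 401 ± 6.96 CPM in Ad-GFP and 876 ± 18.7 in Ad-Cre-GFP, 2.19-fold higher.

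The RefSeq promoters of the pair (GRCm38.p6, from 250 bases before the start to 50 after) are set side by side because the genes are so alike and changed so unequally. They are Serpinb9b at chr13:33027164-33027463 and Serpinb9 at chr13:33004291-33004590, both on the plus strand, and capitals mark aligned runs of at least 12 identical bases.
Serpinb9b promoter: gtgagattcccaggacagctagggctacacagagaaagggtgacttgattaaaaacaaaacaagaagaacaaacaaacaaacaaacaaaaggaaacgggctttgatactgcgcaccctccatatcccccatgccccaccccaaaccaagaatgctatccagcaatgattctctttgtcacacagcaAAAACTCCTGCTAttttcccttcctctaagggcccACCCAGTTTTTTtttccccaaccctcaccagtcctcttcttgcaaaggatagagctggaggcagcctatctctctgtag
Serpinb9 promoter: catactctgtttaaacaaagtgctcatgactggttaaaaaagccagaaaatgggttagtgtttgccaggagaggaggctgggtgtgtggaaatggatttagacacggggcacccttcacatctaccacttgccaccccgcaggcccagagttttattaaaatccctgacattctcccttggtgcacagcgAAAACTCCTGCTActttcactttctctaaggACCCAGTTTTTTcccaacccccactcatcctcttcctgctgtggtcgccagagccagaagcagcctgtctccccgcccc
The windows matched at 66.9% of 278 aligned bases, less than the coding sequences, and held 2 such runs of 13 and 12 bases. GC content was 46.7% for Serpinb9b and 51% for Serpinb9.

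Short motifs of 3 factors were searched on both strands in the promoters of tested members, of which 14 windows from 13 of the 17 genes were in the table; Plat, Plau and Serpinb1a were among those with no entry. The TEAD motif GGAATG was in 2 of the 14 (Serpinb1b and 1 of the 2 windows of Serpinb6a), and in 14.7% of all 32851 promoters. The AP-1 motif TGANTCA was in 3 of the 14 (Plaur, Serpinb5 and Serpinb8), and in 7.81% of all promoters. The SMAD motif CAGACA was in 3 of the 14 (Serpinb5, Serpinf1 and Serpinh1), and in 21% of all promoters. Over the 12614 promoters of genes tested, the shares were 12.2% for TEAD, 5.32% for AP-1 and 15.9% for SMAD. None of the 3 was in the windows of Serpinb9b or Serpinb9. The Plaur window, chr7:24462233-24462532 on the plus strand, is shown for its AP-1 match, TGACTCA, in capitals 69 bases before the start.
Plaur promoter: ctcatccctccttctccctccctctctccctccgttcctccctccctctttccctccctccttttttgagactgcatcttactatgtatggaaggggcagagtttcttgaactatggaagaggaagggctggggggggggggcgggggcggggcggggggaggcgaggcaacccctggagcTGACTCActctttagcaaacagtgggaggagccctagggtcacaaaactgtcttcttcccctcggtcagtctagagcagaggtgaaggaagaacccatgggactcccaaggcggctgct
Of the 3 genes with an AP-1 match, Plaur rose and Serpinb5 and Serpinb8 fell.

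Serpinb6a and Serpinb6b, intracellular inhibitors of trypsin-like and granule proteases, moved apart. Serpinb6a had 567, 562 and 553 CPM in Ad-GFP and 412, 402 and 400 CPM in Ad-Cre-GFP, all lower. Serpinb6b had 342, 342 and 359 CPM in Ad-GFP and 469, 494 and 481 CPM in Ad-Cre-GFP, all higher. Serpinb6a fell by 0.47 ± 0.03 (adjusted p = 2.75e-12) and Serpinb6b rose by 0.47 ± 0.03 (adjusted p = 1.05e-11). The summed counts of the pair were 908 ± 4.39 CPM in Ad-GFP and 886 ± 8.14 in Ad-Cre-GFP, a log2 ratio of -0.04. Serpinb6b counts went from 0.620 ± 0.0242 to 1.19 ± 0.0472 of those of Serpinb6a. In counts the change was thus mainly one of proportion. Serpinb6a is longer than Serpinb6b by all exons (5409 against 2262 bases). It is shorter by the transcript with the longest coding sequence (1504 against 2193). The count sum of Serpinb6a and Serpinb6b therefore does not show whether their transcript total changed. Their coding sequences are identical at 86.3% of 1128 aligned bases with exact runs of up to 57 bases, so reads can be shared between them, and Serpinb6a also overlaps Nqo2, Ripk1 and 1110046J04Rik on the other strand, which had 5565, 5008 and 632 counts beside its 72256.

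Serpinb1a codes for an inhibitor of neutrophil elastase and other granule proteases. It had 187, 187 and 206 CPM in Ad-GFP and 86.7, 90.7 and 86.2 CPM in Ad-Cre-GFP. No Ad-Cre-GFP library came near the controls, and Serpinb1a fell by 1.14 ± 0.04 (adjusted p = 4.51e-16). Its close copies were rare and went the other way. Serpinb1b had 22 counts over the Ad-GFP libraries and 61 over the Ad-Cre-GFP libraries and rose by 1.08 ± 0.33 (adjusted p = 0.00675), and Serpinb1c, untested, had 9 and 35 (ratio 2.91, interval 1.37–6.88). Serpinb1a and Serpinb1b share 90.6% of 1137 aligned coding bases, so the low counts of the copies are uncertain. With all 3 added, the level was 194 ± 10.9 CPM in Ad-GFP and 89.0 ± 2.39 in Ad-Cre-GFP.

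**Figure D4:**
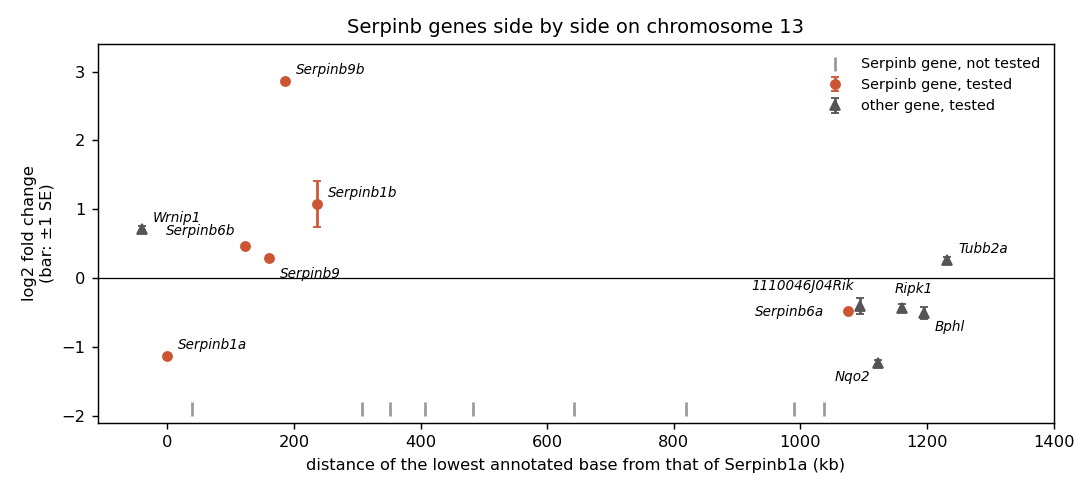
Log2 fold change of tested genes along the Serpinb cluster of chromosome 13 against distance from Serpinb1a in kilobases; circles are serpins, triangles are other genes, bars are ±1 SE, and ticks mark serpins that were not tested. Serpinb9b stands at 2.86 between neighbours at 0.29 (Serpinb9) and 1.08 (Serpinb1b).

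Other genes in and next to the cluster moved both ways too. Wrnip1, on the Serpinb1a side, rose by 0.71. At the Serpinb6a side, Nqo2, which lies within the span of Serpinb6a, and Ripk1 and Bphl fell by 1.23, 0.43 and 0.51 and Tubb2a rose by 0.26. Beside Serpinb1c, the untested serpins inside the cluster were at or near 0, with 28 counts over the 6 libraries for Serpinb6c, 3 in Ad-GFP and 25 in Ad-Cre-GFP (ratio 6.23, interval 1.90–32.3), and 14 for Serpinb9g, 1 and 13 (ratio 9.73, interval 1.46–413).

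Clade A, which includes alpha-1-antitrypsin and other serpins of blood plasma made mainly by the liver, was nearly silent. None of its 24 members was tested, and 17 had no count at all. Of the 16 Serpina1 and Serpina3 genes, 14 had none, Serpina3n had 6 counts and Serpina3m had 1. A gene without a count can have been present at up to 3 counts of a library's total, 0.0990 to 0.161 CPM depending on the library (unscaled). Serpina9 had the most in the clade, 3 counts in Ad-GFP and 17 in Ad-Cre-GFP (ratio 4.24, interval 1.23–22.6). The hepatocyte markers Alb, Ttr, Fga and Fgb were also at 0 in all 6 libraries.

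Levels of different genes can be compared only per length, here as CPM per kilobase of annotated exon. On that scale Serpinh1 led with 741 ± 37.0 in Ad-GFP and 797 ± 7.0 in Ad-Cre-GFP (SD, n = 3), above 99.6% of all genes tested. In Ad-GFP the order of the members named here was then Serpinb6b (154), Serpinb6a (104), Serpinb9 (96.4), Serpinb1a (83.9), Plaur (32.0), Serpinb9b (19.03) and Plat (7.56), with no overlap between neighbours. In Ad-Cre-GFP it was Serpinb6b (213), Serpinb9b (138), Serpinb9 (118), Serpinb6a (74.8), Plaur (61.9), Serpinb1a (38.2), Plau (4.32) and Plat (2.76), again without overlap. Serpinb9b thereby went from above 78.6% to above 96.8% of all genes tested. The place of Serpinb6a depends on the length used. By the transcript with the longest coding sequence (1504 bases, against 5409 for all exons), Serpinb6a was second in both groups. Its level on that scale was 269 CPM per kilobase in Ad-Cre-GFP. The order of Plat and Plau in Ad-Cre-GFP depends on the length used as well. By transcript length Plat was above Plau, at 6.82 against 4.37, the reverse of the order by exon length. By transcript length in Ad-GFP, the mean of Serpinb1a (101 ± 5.75) was above that of Serpinb9 (97.0 ± 1.44), but their SD ranges overlapped. There Serpinb9b (19.6 ± 1.08) and Plat (18.7 ± 1.14) stood close together. Scarcer members overlapped with the next in order: Serpini1 with Plau, Serpinb5 with Serpinf1, Serpinf1 with Serpine3 and Serpinb1b with Serpind1 in Ad-GFP, and Serpinb1b with Serpind1 in Ad-Cre-GFP.

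Genes around the system were taken from a list by function, 57 in all, of which 25 were tested. In Ad-Cre-GFP 7 were higher, 13 were lower and 5 were not called, beside 34.0% higher and 35.8% lower over all genes tested, with a median log2 fold change of -0.22. Plg, which codes for plasminogen itself, had no count in any library. Of its binding proteins, Eno1 was 364 ± 16.1 CPM in Ad-GFP and 223 ± 6.33 in Ad-Cre-GFP and fell by 0.71 ± 0.03, though it has near-identical copies with many counts of their own. Anxa2 fell by 0.15 ± 0.03 from 1815 ± 35.6 CPM, and its partner S100a10 rose by 0.17 ± 0.03 from 455 ± 17.3 CPM.

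Among the receptors that take up complexes of proteases and serpins, the clearest changes had opposite signs. Lrp2, megalin, had 4.40 ± 0.254 CPM in Ad-GFP and 53.7 ± 3.25 in Ad-Cre-GFP and rose by 3.60 ± 0.07 (adjusted p = 1.80e-20). Lrp1, a large endocytic receptor that clears protease and inhibitor complexes from the cell surface, went from 36.4 ± 1.60 to 15.5 ± 0.516 CPM and fell by 1.23 ± 0.06 (adjusted p = 1.55e-14). Igf2r, which can bind Plaur, fell by 0.76 ± 0.03. Of the 7 tested in this group, 1 was higher, 4 were lower and 2 were not called.

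In the clotting group 5 of 17 genes were tested, 1 higher and 2 lower. F3, tissue factor, the starter of the clotting cascade, went from 52.9 ± 1.47 to 118 ± 4.0 CPM and rose by 1.16 ± 0.04 (adjusted p = 4.80e-17). Procr, the receptor for the anticoagulant protein C, went from 340 ± 4.43 to 155 ± 4.29 CPM and fell by 1.13 ± 0.03 (adjusted p = 2.34e-18). Pros1, the cofactor of protein C, was called lower at -0.39 ± 0.16 (adjusted p = 0.0364), a call lost in 7 of 15 alternatives (0.0125 to 0.173 over them). Of 4 protease-activated receptors, the thrombin receptor F2r fell by 0.23 ± 0.04.

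Among membrane-bound and secreted serine proteases, 4 of 11 were tested, 3 higher and 1 lower. Pcsk6, a proprotein convertase, went from 1.19 ± 0.345 to 5.35 ± 0.309 CPM and rose by 2.18 ± 0.17. Furin, of the same family, fell by 0.94 ± 0.03 from 175 ± 5.0 CPM. Prss23, a secreted serine protease, rose by 0.44 ± 0.03 from 659 ± 27.1 CPM, and shares sequence with the gene Prss23os, which had 865 counts. The Kunitz and WAP inhibitors were scarce: Spint2 was 10.5 ± 0.598 and 8.96 ± 0.614 CPM, and Spint1 and Slpi were under 1 CPM. Spint2 and Spint1 were called lower (-0.22 and -0.98) and Slpi higher (1.08), but leaving out Ad-GFP replicate 3 ended the Slpi call (adjusted p = 0.0901; 0.00572 to 0.0901 over the alternatives), and the Spint1 call with DESeq2 (0.0549; 0.00351 to 0.0549). The Spint2 call was lost with DESeq2 and without Ad-GFP replicate 3, Ad-Cre-GFP replicate 1 or Ad-Cre-GFP replicate 2 (0.00979 to 0.101 over the alternatives). None of 6 granule proteases of blood cells, the targets of several clade B serpins, was tested, and their sum was at most 0.182 CPM in any library.

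**Figure D5:**
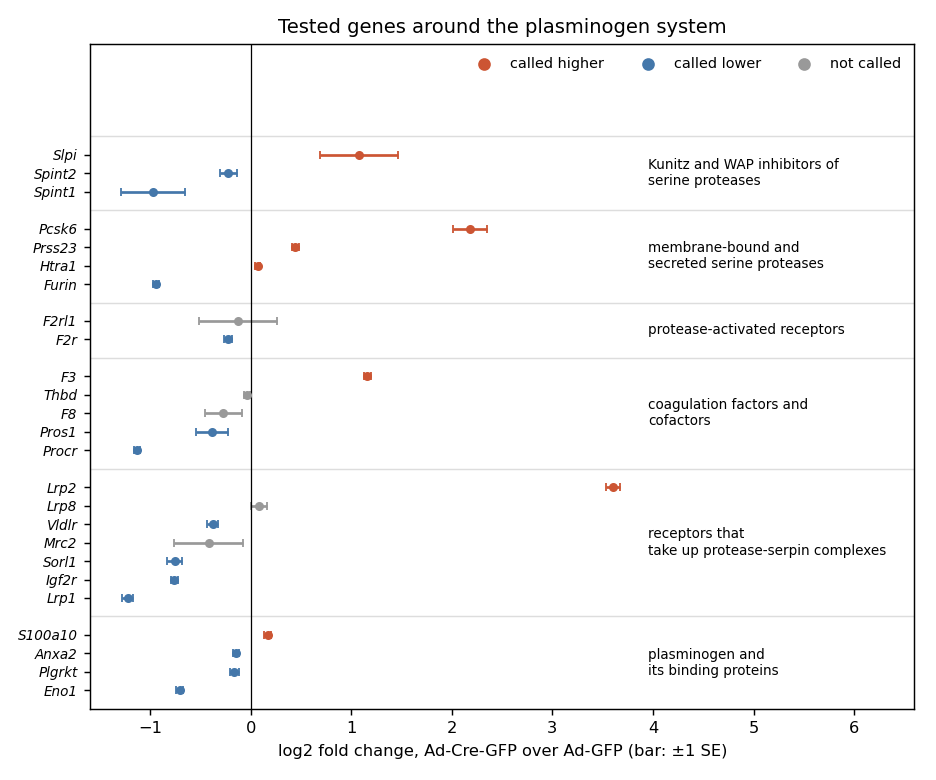
Log2 fold change of Ad-Cre-GFP over Ad-GFP for the 25 tested genes around the plasminogen system, by functional group; points are edgeR estimates, bars are ±1 SE, and colour marks the call. Lrp2 lies farthest right at 3.60 and Lrp1 farthest left at -1.23, within the same group of receptors.

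Some markers of other cell types differed between the groups as well, and their part in the results above was not tested. The 8 endothelial markers summed to 3.05–3.17 CPM in Ad-GFP and 10.4–11.9 in Ad-Cre-GFP; Kdr and Flt1 were called higher, 6 had under 10 counts in every library, and Tie1 and Emcn were at 0. The 7 macrophage and immune markers summed to 10.9–13.2 and 6.69–7.30 CPM. Of these, Cd14 was called lower (means 9.46 and 4.01 CPM) and Cd68 was not called (2.81 and 2.76). The other 5 had under 10 counts in every library, with Adgre1 at 0. Of 6 stromal fibroblast markers, 4 were tested and called lower, with Lum and Tcf21 at 0 and sums of 376–395 and 274–295 CPM. The 6 granulosa markers summed to 134–146 and 324–337 CPM, nearly all from Inhbb, with Fshr and Cyp19a1 at 0. Of the 4 tested, 3 were called higher and Inha was called lower (-1.52). The 5 theca markers summed to 130–131 and 95.7–97.7 CPM, with Hsd3b1 at 0. The 2 tested were both called lower, Star (means 25.2 and 5.83 CPM) and Nr5a1 (105 and 90.6).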

How the data were processed

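Poly(A) RNA was purified from 6 libraries of mouse ovarian surface epithelial cells. The authors deposited unnormalized read counts per gene, whole numbers with a different total in each library, for 48440 Ensembl IDs, 48058 of which matched GENCODE release M21. Per the submitters' processing notes the build was GRCm38 and the tools included kallisto 0.46.2 and sleuth 0.30.1; what made these counts, and whether strand was used, is not given in the sources used here.

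The counts were tested with edgeR 4.0.16 (TMM scaling, filterByExpr with a minimum count of 10, robust quasi-likelihood fit, no covariates; R 4.3.3), Benjamini-Hochberg adjusted over 14811 genes. The SE is the log2 fold change over the root of F. The script was tested on simulated data. Replicates were compared by chi-square (2.04 to 4.27 per gene), so no pair agreed within sampling noise. Genes were named by rule: the 3 activator genes, tested serpins of at least 1 CPM in a group, scarcer members by counts, and up to 3 called related genes per list by adjusted p; neighbours of the chromosome 13 cluster, and the untested members and marker genes named, were chosen after their values were seen. The members and lists were chosen with earlier results of these data known. Alternatives were other scalings, filters and tools (DESeq2 1.42.0, limma 3.58.1), thinning, a block by replicate number, and fits without each library in turn; transcript lengths were added after seeing the data. A member of the set enters the counts but is not reported here. Protein identity was planned and not analysed here; coding sequences were aligned instead (biopython 1.88), and near copies were sought with blast 2.17.0 (at least 200 bases at 90% identity).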

Additional observations from a re-analysis of the deposited data

How the results depend on the processing

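Over the counts of called genes, 89 of 90 values stayed within 1.5 times the first value. The exception was the number of members called higher, which was 15 with no filter on low counts, against 9, through Serpina9, Serpinb1c, Serpinb6c, Serpinb7, Serpinb9g and Serpine2. Leaving out 1 library gave 8 to 9 members called higher and 6 called lower in each case. Of 489 alternative fold changes of named genes, 472 kept their direction and their side of the threshold. Serpinf1, not called, changed sign when libraries were thinned to the smallest (-0.038) and without Ad-GFP replicate 1 (-0.20) or Ad-Cre-GFP replicate 2 (-2.0e-05), within a range of -0.20 to 0.20 over the single libraries left out. The cause was not tested. The other 14 were lost calls of Serpinh1, Pros1, Slpi, Spint1 and Spint2, and among members DESeq2 left Serpinb1b nearest the threshold (adjusted p = 0.0497). The filter left 22 members untested, and their low counts limit the precision of any value given for them.

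Deviations of same-numbered libraries correlated weakly, at 0.0488, 0.0510 and 0.00502. For Ad-GFP replicates 1 and 2 the same number gave the highest correlation, while Ad-GFP replicate 3 correlated better with another number. With 3 libraries in each group, such values cannot show whether the numbers mark pairs. With the replicate number as a block, 9 members were called higher and 6 lower, the same 15 genes, and of all genes 5130 were higher and 5348 lower, against 5040 and 5304.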
